A study of Mus musculus with 6 samples.

Results

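Complement components and regulators were followed in cultured mouse hepatic stellate cells through 9 listed genes, namely C3, C4b, Cfb, C1s, C1ra, Serping1, Cd55, Cd59a and Colec11. The rule took each probe set that the array's annotation assigns to one of these symbols and to no other gene. It gave 11 probe sets of 7 genes, among 45037 probe sets tested and 18193 named genes in all. C1s is listed under its current mouse symbol C1s1. C3 was not analysed here, because no probe set is listed under its symbol, and the probe set of C4b is shared with its near-identical copy C4a, so neither of these genes has a value.

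The series compared 2 groups of 3 Affymetrix arrays each. Both groups were isolated stellate cells of C57Bl/6 background that carried the transgenes CMV-rtTA and TRE-GFP-shRNA.p53.1224, in which doxycycline switches on a hairpin RNA against p53 together with green fluorescent protein. The proliferating cells received doxycycline at 1 ug/ml and are labelled as p53 knockdown cells, while the senescent cells are labelled as controls that express p53. The hairpin's target was not analysed here. The comparison asks how cells with these labels differ. Because doxycycline is given for 1 group alone, its own effect and that of the hairpin cannot be told apart. The labels do not state whether replicates stem from different mice or cultures, and p-values therefore reflect the spread among these arrays, which could be purely technical.

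Complement is a cascade of blood and tissue proteins that tags particles for uptake, attracts leukocytes and can pierce membranes. The classical pathway starts when C1q binds a target and switches on its paired proteases C1r and C1s, and the lectin pathway starts when collectins or ficolins bind sugars and switch on the MASP proteases. Both lead to a convertase that cleaves C3, which factor B amplifies in the alternative pathway. Host cells are protected by soluble inhibitors such as C1 inhibitor and by membrane proteins such as CD55, which breaks up convertases, and CD59, which blocks the membrane attack complex. In the liver hepatocytes are the main source of the soluble components, and mesenchymal cells also make several of them.

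As a check of the labels, the p53 target gene Cdkn1a, which codes for p21, was higher in senescent cells by a log2 change of 1.74 and Mdm2, the ubiquitin ligase of p53, by 1.21. Array medians lay between 6.15 and 6.19 on the log2 scale, and the number of arrays limits the precision. Of 9 stellate cell and fibroblast markers 7 lay above background on average, and the 2 below it were the stellate cell markers Lrat and Reln. Of the 9, 4 were called lower in senescent cells by the threshold used below and 0 higher, namely Pdgfrb (log2 change -1.30), Col3a1 (-0.93), Col1a1 (-0.56) and Col1a2 (-0.49), while Acta2 (0.12), Vim (0.096) and Des (0.14) were not called. Of all genes read from their brightest probe set, 8.22% were called lower and 7.60% higher. Of those with a mean above background, 21.9% were called in either direction. These shares also stand beside the calls of the other cell type markers below. The linear signals of the 9 summed to between 107413 and 108750 on proliferating and between 89389 and 89965 on senescent arrays. Background means 5.57 log2 units, the 95th percentile of the mean levels of 44 olfactory receptor probe sets. All 5 mesothelial markers lay above it, among them Msln at 10.79 in proliferating and 11.58 in senescent cells, Wt1 at 8.43 and 7.31 and Gpm6a at 12.11 and 11.54, and these 3 passed the threshold used below. The brightest mesothelial marker, Upk3b (12.61 and 12.42), was not called. The linear signals of the mesothelial markers summed to between 12159 and 14225 on proliferating and between 11830 and 11946 on senescent arrays. All 4 biliary markers lay above background, with Krt19 called higher (10.57 and 11.15) and Krt7 lower (6.43 and 5.73). Of 7 endothelial markers 2 lay above background on average, and the only call was Cdh5, higher (5.02 and 5.74). The part of mesothelial, biliary or endothelial cells in the results was not tested. In such cultures fewer cells of a type and less RNA per cell cannot be told apart.

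Senescent cells had less RNA of 3 genes that act at the start of the classical and lectin pathways and more RNA of 1 membrane protector. The protease genes C1ra and C1s were 1.91-fold and 1.63-fold lower in senescent cells, and Cd59a was 1.99-fold higher. The mean of the collectin gene Colec11, in its stronger probe set, fell from 3.04-fold over background to below background. The other probe set of Colec11 lay below background on all 6 arrays. Cfb, Serping1 and Cd55 did not pass the test. With limma and Benjamini-Hochberg adjustment over all probe sets tested, 6 of the 11 had an adjusted p under 0.05, against 12.4% of all probe sets. Of these 6, 4 were lower, against 6.39% of all probe sets, and 2 were higher, against 5.99%. The 4 include the Colec11 probe set below background. When only the 26484 probe sets above background were tested, 3 member probe sets were called lower and 2 higher. Among those 26484, 3313 were lower and 3027 higher. For 6 of the 11 the values of the groups did not overlap, against 31.0% of all probe sets. The median log2 change of the 11 was -0.25 and that of all probe sets 0.0021. Probe sets of one gene share their target and are not independent. Members and gene lists were chosen with earlier results of these data known, so such counts are no independent support.

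**Figure D1:**
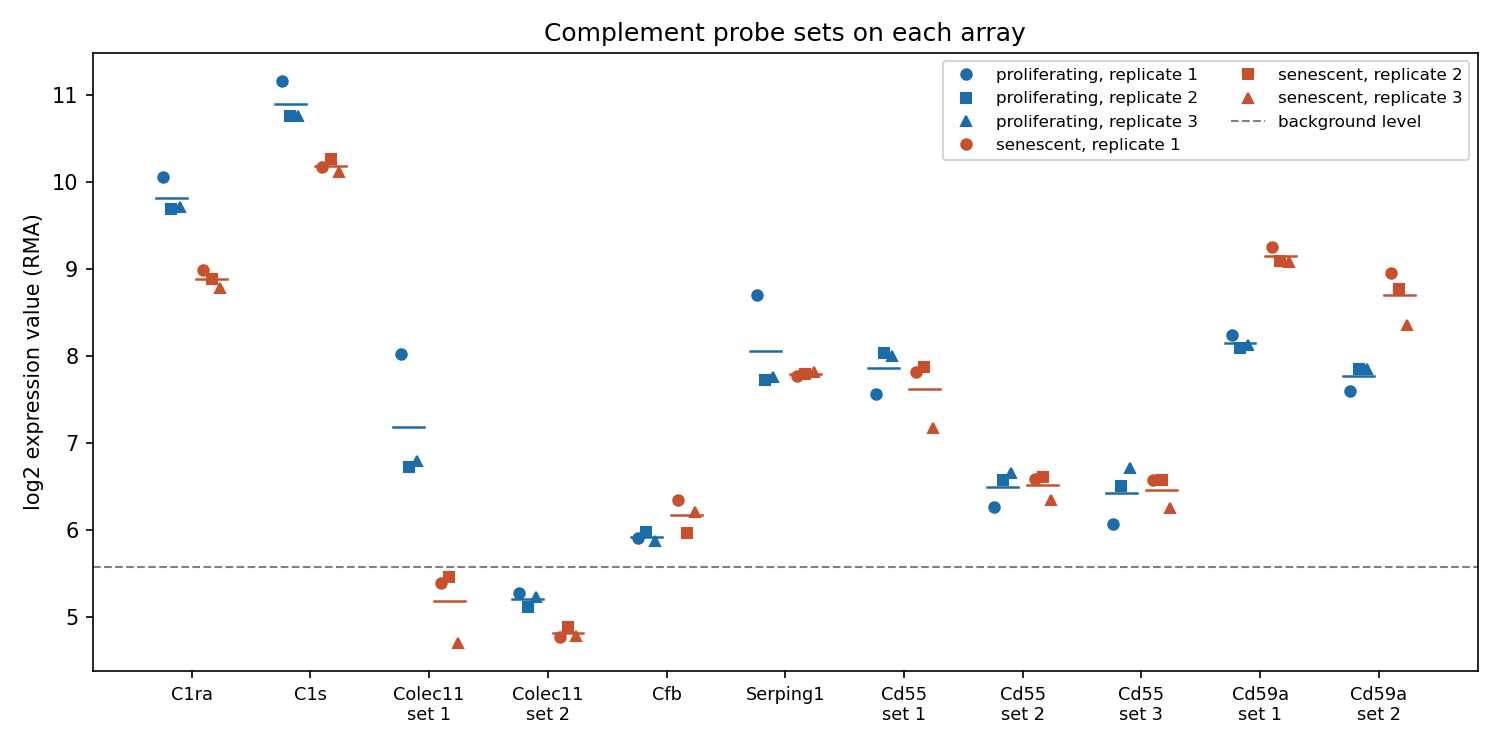
Log2 expression value (vertical axis) of the 11 complement probe sets (horizontal axis) on each of 3 proliferating (blue) and 3 senescent (red) arrays, with short lines at the group means and the background level of 5.57 dashed. C1ra, C1s and both probe sets of Colec11 lie lower and both probe sets of Cd59a higher on the senescent arrays without overlap, whereas the groups overlap for Cfb, Serping1 and Cd55.

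The stretches before the start sites of 4 genes are shown because their RNA differed between the groups, 3 of them downward together and Cd59a upward. They are 250 bases long and end at the base before the start, were taken from RefSeq (build GRCm38.p6, a build that the array files do not name), and are written in the direction of the gene. C1ra lies on the plus strand of chr6:124512371-124512620, C1s on the minus strand of chr6:124542360-124542609, Colec11 on the minus strand of chr12:28623331-28623580 and Cd59a on the plus strand of chr2:104095551-104095800. Capitals mark matches, on either strand, to any of 5 motifs, which may overlap. RefSeq gives a second, overlapping window for C1s, and the table held no window for Cfb or Serping1.
C1ra: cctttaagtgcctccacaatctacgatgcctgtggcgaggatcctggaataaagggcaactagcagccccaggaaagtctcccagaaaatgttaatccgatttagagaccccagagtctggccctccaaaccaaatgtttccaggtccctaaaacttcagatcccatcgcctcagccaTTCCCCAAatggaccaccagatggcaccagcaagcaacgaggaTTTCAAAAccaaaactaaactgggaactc
C1s: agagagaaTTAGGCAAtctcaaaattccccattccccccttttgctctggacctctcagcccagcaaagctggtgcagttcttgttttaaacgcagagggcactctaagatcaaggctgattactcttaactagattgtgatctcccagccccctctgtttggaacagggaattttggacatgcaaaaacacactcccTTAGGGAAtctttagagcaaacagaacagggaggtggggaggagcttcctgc
Colec11: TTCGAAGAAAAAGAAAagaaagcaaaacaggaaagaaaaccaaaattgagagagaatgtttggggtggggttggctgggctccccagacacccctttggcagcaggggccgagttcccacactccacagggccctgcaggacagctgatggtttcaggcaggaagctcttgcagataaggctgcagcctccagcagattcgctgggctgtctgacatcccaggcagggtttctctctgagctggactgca
Cd59a: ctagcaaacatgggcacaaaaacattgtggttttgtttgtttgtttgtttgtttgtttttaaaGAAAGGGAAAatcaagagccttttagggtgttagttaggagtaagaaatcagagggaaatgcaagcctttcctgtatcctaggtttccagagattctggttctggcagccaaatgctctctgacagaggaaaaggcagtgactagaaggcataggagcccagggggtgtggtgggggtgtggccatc
The motifs were the C/EBP-like TTNNGNAA, the interferon-gamma activated site TTCNNNGAA, the interferon-stimulated response element GAAA-NN-GAAA, the kappaB-like GGG-NN-TTTCC and the p53 half-site. C1ra held 2 matches to the C/EBP-like motif, beginning 72 and 29 bases before the start, and C1s 2 as well, at 242 and 52 bases. That motif is found in 36.8% of 32851 RefSeq windows of this length. Colec11 held an interferon-gamma activated site and an interferon-stimulated response element that overlap each other, at 250 and 244 bases before the start, and Cd59a a response element at 187 bases. These motifs occur in 7.02% and 2.98% of the windows. The letters of the kappaB-like motif (1.41% of windows) and of the p53 half-site (7.13%) were in none of the 4 windows. The window of Cd55, whose RNA did not pass the test, held no match to any of the 5. A match describes letters and not a bound site.

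C1ra encodes C1r, the protease that activates itself in the C1 complex and then cleaves C1s. Its log2 values were 10.05, 9.69 and 9.72 on the proliferating arrays and 8.99, 8.88 and 8.78 on the senescent arrays. Each senescent array lay below each proliferating one, and proliferating replicate 1 was the highest of the 6. The means were 9.82 ± 0.20 (SD, n = 3) and 8.88 ± 0.10, a log2 change of -0.94 ± 0.11 (SE, adjusted p = 0.00195). Without proliferating replicate 1 the change was -0.82 (adjusted p = 0.0022). A further probe set shared by C1ra and its paralog C1rb was not used.

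C1s, the protease that cleaves C4 and C2, followed the same order of groups. The proliferating arrays read 11.16, 10.76 and 10.76 and the senescent arrays 10.18, 10.26 and 10.11. The groups did not overlap, and proliferating replicate 1 was again the highest. The log2 change was -0.71 ± 0.12 (SE, n = 3 per group, adjusted p = 0.00782), from 10.89 ± 0.23 (SD) to 10.18 ± 0.07, and -0.57 without proliferating replicate 1 (adjusted p = 0.00658). Its suffix (_s_at) marks probes shared by several transcripts, so signal from the paralog C1s2 cannot be told apart. C1ra and C1s1 are direct neighbours among protein-coding genes on chromosome 6.

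Colec11 encodes collectin-11, a soluble lectin that binds sugars on microbes and damaged cells and carries MASP proteases. Its stronger probe set read 8.02, 6.73 and 6.79 on the proliferating arrays and 5.39, 5.46 and 4.70 on the senescent arrays. All proliferating arrays lay above background and all senescent arrays below it. The mean fell from 7.18 ± 0.73 (SD, n = 3) to below background, with an adjusted p of 0.0087. The observed means differ by at least 3.04-fold, a bound that sets the proliferating mean against the background level. That bound is no confidence limit, and proliferating replicate 1 lifts the mean it uses. The fitted log2 change, which is no bound, was -1.99 ± 0.35 (SE), with a 95% interval from -2.79 to -1.19 before adjustment. Without proliferating replicate 1 the fitted change was -1.57 (adjusted p = 0.00476). This probe set carries the same suffix as that of C1s.

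The other probe set of Colec11 lay below background on all 6 arrays, at 5.27, 5.11 and 5.23 in proliferating and 4.77, 4.89 and 4.78 in senescent cells. It passed the test at -0.39 ± 0.08 log2 units (SE, n = 3 per group, adjusted p = 0.0168), for which no fold is given. Its call ended without proliferating replicate 3 (-0.38, adjusted p = 0.0669), senescent replicate 1 (-0.37, adjusted p = 0.0628) or senescent replicate 3 (-0.38, adjusted p = 0.0538).

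Cfb encodes factor B, the protease of the alternative pathway convertase. Its values were 5.91, 5.97 and 5.87 in proliferating and 6.34, 5.96 and 6.21 in senescent cells, all a little above background. Senescent replicates 1 and 3 lay above the proliferating arrays, while senescent replicate 2 lay among them. The log2 change of 0.25 ± 0.11 (SE, n = 3 per group) missed the threshold (adjusted p = 0.189), with a 95% interval of 0.0045 to 0.49 before adjustment. Its direction turned under scaling to the poly-A spike-ins, bacterial transcripts added before labelling (-0.29, adjusted p = 0.158).

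Serping1 encodes C1 inhibitor, the serpin that inactivates C1r, C1s and the MASP proteases. It read 8.70, 7.72 and 7.76 on the proliferating arrays and 7.77, 7.80 and 7.81 on the senescent arrays. Proliferating replicate 1 stood well above the other 5 arrays, and proliferating replicates 2 and 3 lay just under the senescent ones. The log2 change was -0.27 ± 0.24 (SE, n = 3 per group, adjusted p = 0.556), with a 95% interval from -0.81 to 0.28. Without proliferating replicate 1 it was 0.05 (adjusted p = 0.765), so its direction rests on that array.

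Cd55 encodes decay-accelerating factor, which speeds the breakdown of convertases on host cells. Its strongest probe set read 7.56, 8.04 and 7.99 in proliferating and 7.81, 7.87 and 7.17 in senescent cells. The groups overlapped, with senescent replicate 3 lowest. The log2 change was -0.25 ± 0.20 (SE, n = 3 per group, adjusted p = 0.528), with a 95% interval from -0.71 to 0.22. The 2 weaker probe sets gave 0.016 (interval -0.27 to 0.30) and 0.036 (interval -0.35 to 0.42), with adjusted p of 0.957 and 0.931. Their sign turned without proliferating replicate 1 (-0.099 and -0.15), senescent replicate 1 (-0.02 and -0.017) or senescent replicate 2 (-0.031 and -0.018). The intervals leave room for changes of up to 1.64-fold down or 1.34-fold up in a single probe set, so equal levels are not shown. The gene's neighbour and paralog Cd55b read between 3.30 and 3.48 on the 6 arrays, below background.

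Cd59a encodes CD59, the lipid-anchored protein that keeps C9 from forming the pore of the membrane attack complex. Its stronger probe set read 8.24, 8.09 and 8.12 on the proliferating arrays and 9.26, 9.09 and 9.08 on the senescent arrays. The arrays within a group lay close together and the groups far apart. The mean rose from 8.15 ± 0.08 (SD, n = 3) to 9.14 ± 0.10, 1.99-fold (log2 change 0.99 ± 0.09, SE, adjusted p = 4.14e-04). The weaker probe set read 7.59, 7.85 and 7.86 in proliferating and 8.96, 8.77 and 8.36 in senescent cells. It rose 1.90-fold (log2 change 0.93 ± 0.15, adjusted p = 0.00722), again without overlap. The probe sets therefore gave changes of like size, and that of the stronger one lay between 0.94 and 1.04 over the alternatives other than spike-in scaling. Scaled to the spike-ins, the changes were 0.45 (adjusted p = 0.0328) and 0.39 (adjusted p = 0.0628), so the second call ended there.

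**Figure D2:**
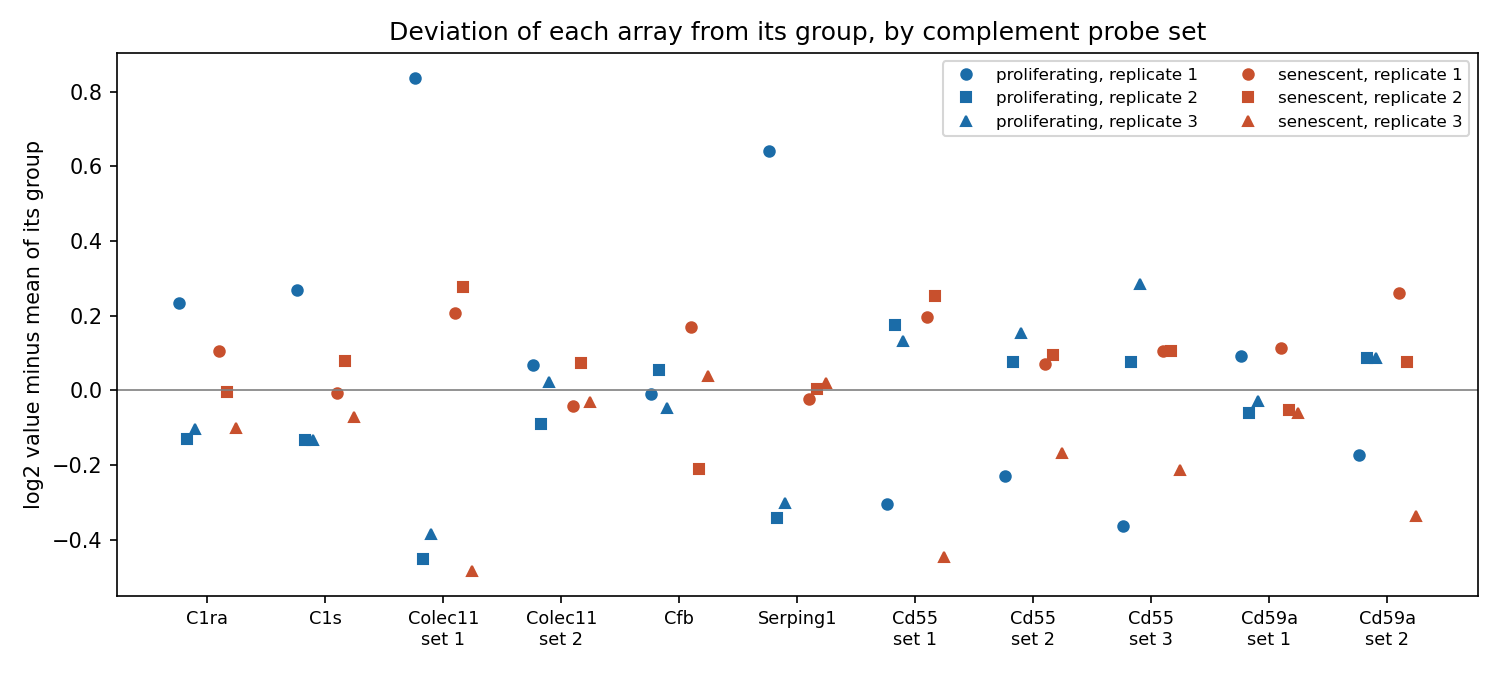
Log2 value of each array minus the mean of its own group (vertical axis) for the 11 complement probe sets (horizontal axis), proliferating in blue and senescent in red, with a symbol per replicate. Proliferating replicate 1 is above the other proliferating arrays for C1ra, C1s, Colec11 and Serping1 and below them for the 3 probe sets of Cd55. For Cd59a it is above them in the stronger probe set and below them in the weaker one.

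Among the proliferating arrays the members did not vary alike. Proliferating replicate 1 exceeded the mean of replicates 2 and 3 by 1.26 log2 units for the stronger Colec11 probe set, by 0.96 for Serping1, by 0.40 for C1s and by 0.35 for C1ra. For Cd55 it lay below that mean, by differences of -0.46, -0.54 and -0.35 in the 3 probe sets, and for Cfb it differed by -0.01. For Cd59a it differed by 0.14 in the stronger probe set and by -0.26 in the weaker one. Of 26484 probe sets above background, 9.35% were at least 0.3 and 0.774% at least 0.9 log2 units higher on this array than the mean of the other 2. The calls of C1ra, C1s, Colec11 and Cd59a did not rest on this array, and without it 4 member probe sets were still called lower and 2 higher.

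**Figure D3:**
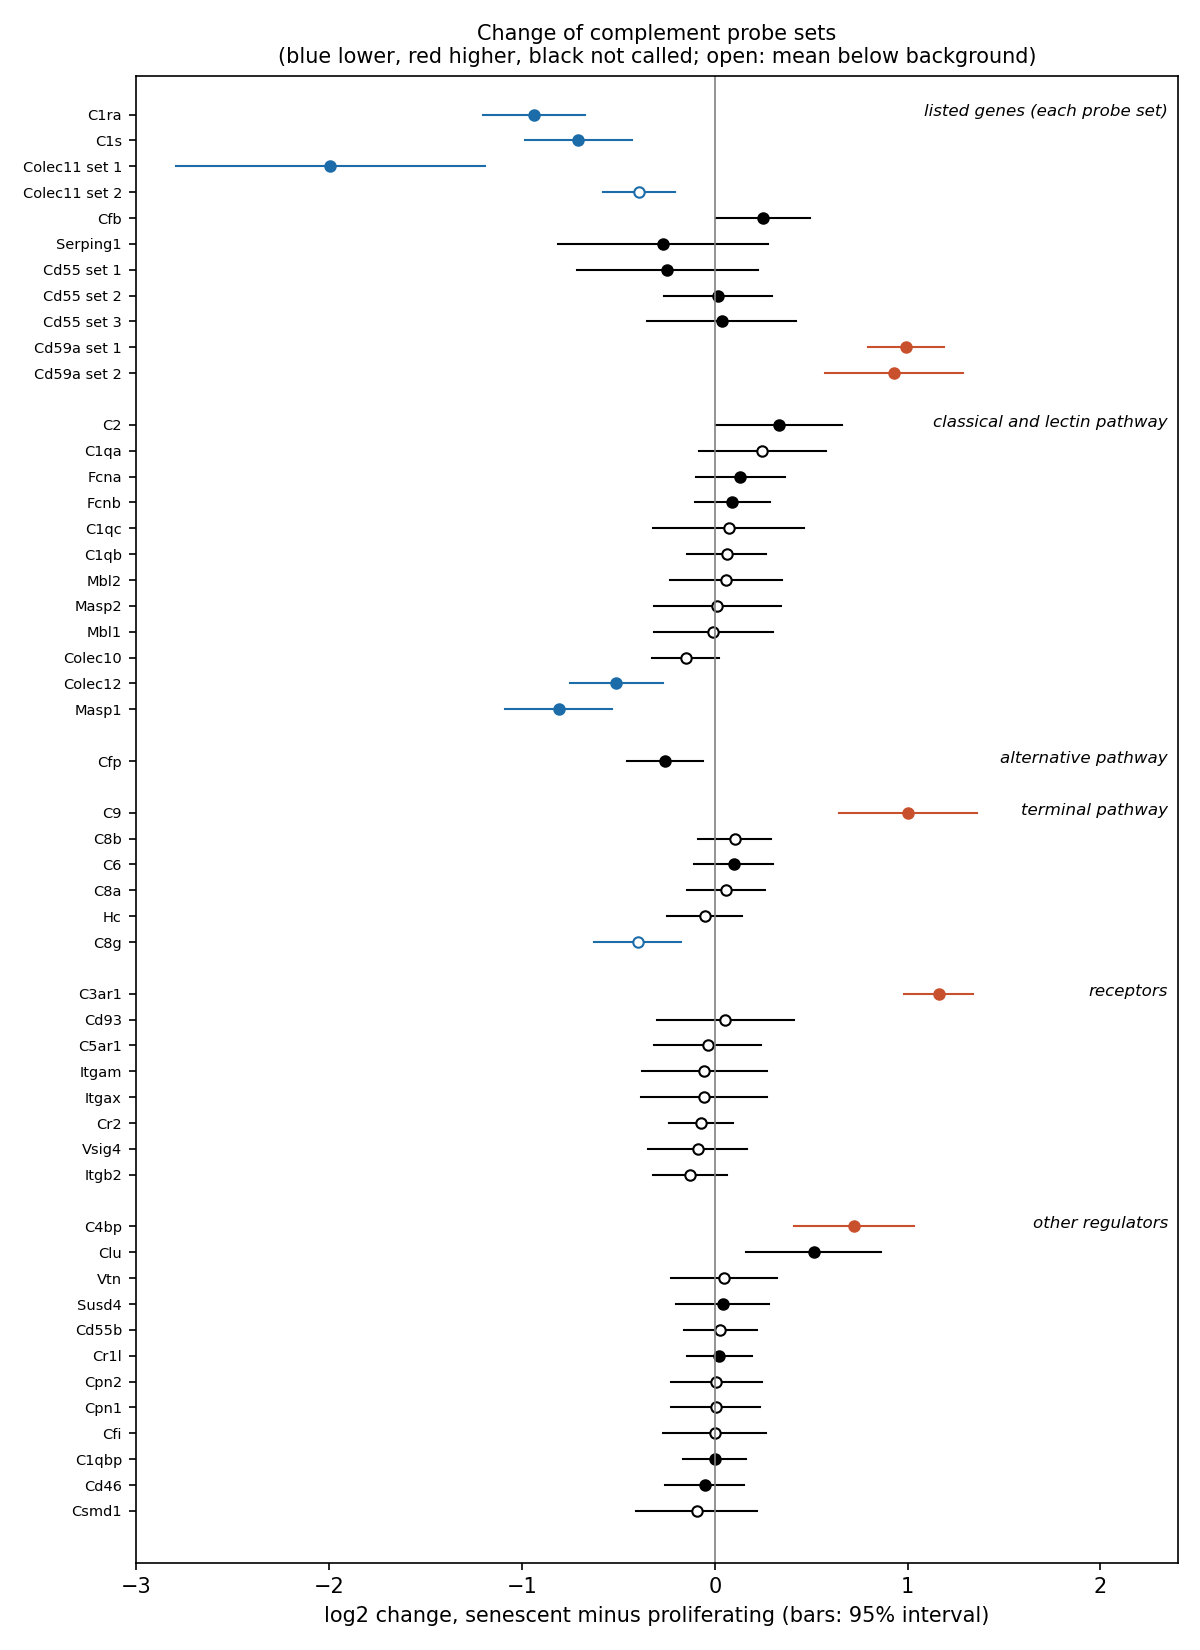
Log2 change, senescent minus proliferating (horizontal axis), with its 95% interval before adjustment (bars), for the 11 probe sets of the listed genes and the brightest probe set of 39 other complement genes (vertical axis, grouped by role). Blue points were called lower, red points higher and black points not called, and open points have a mean below background. Most other complement genes lie near 0.

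The rest of the system, from a list of 48 further complement genes, mostly lay at or below background. Of 39 with a probe set of their own, read from the brightest one, 15 had a mean above background. Of the 39, 3 rose and 3 fell, against 15.8% of all genes read this way that passed in either direction, 7.60% upward and 8.22% downward. The median log2 change of the 39 was 0.013 and that of all genes -0.0018. Of the 15 above background 3 rose and 2 fell, against 21.9% of all genes with a mean above background that passed in either direction. The remaining call was C8g, whose mean lay below it.

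In the classical and lectin group 2 of 12 genes fell and 0 rose, and 5 of the 12 had a mean above background. The shares of all genes, 8.22% downward and 7.60% upward, stand beside the counts of this and the following complement lists. Masp1, whose gene makes lectin pathway proteases, read 10.00, 9.62 and 9.60 in proliferating and 8.996, 8.82 and 8.97 in senescent cells, a log2 change of -0.81 (adjusted p = 0.0046). Of its 5 probe sets 4 passed and the other, below background, gave 0.071. Proliferating replicate 1 was again the highest array, and without it the change was -0.68 (adjusted p = 0.00414). Colec12, a membrane collectin, had a log2 change of -0.51 (adjusted p = 0.0167), a call that ended without proliferating replicate 3 (-0.52, adjusted p = 0.0534). The 3 chains of C1q lay below background on all arrays, between 3.47 and 4.86. C2, whose product C1s cleaves and whose gene lies beside Cfb, had a log2 change of 0.33 (adjusted p = 0.191) without overlap.

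Among 6 terminal pathway genes C9 rose and C8g fell. C9, the pore-forming protein that CD59 restrains, read 5.79, 6.37 and 5.96 in proliferating and 7.20, 6.86 and 7.07 in senescent cells, a log2 change of 1.00 (2.00-fold, adjusted p = 0.00524). C8g, which encodes the gamma chain of C8, was lower by at least 1.11-fold on the bound used for Colec11, with all senescent arrays below background (adjusted p = 0.034). Its fitted log2 change of -0.40 lost its call without any 1 of proliferating replicates 1, 2 and 3 or senescent replicates 1 and 2 (-0.35 to -0.44, adjusted p of 0.0683 to 0.11). The alternative pathway list had 1 measured gene, Cfp for properdin, with a log2 change of -0.26 (adjusted p = 0.0941).

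Of 8 receptor genes C3ar1 rose and the other 7 had means below background. C3ar1, the receptor for the C3a fragment, read 6.17, 6.06 and 6.21 in proliferating and 7.32, 7.35 and 7.26 in senescent cells. The groups lay apart, with a log2 change of 1.16 (2.24-fold, adjusted p = 1.44e-04), and its other 2 probe sets also passed. One of them lay below background on all proliferating arrays and was at least 1.92-fold higher on the bound used for Colec11, and the other, with 1 proliferating array below background, gave a log2 change of 1.65. C5ar1, the C5a receptor and next brightest of the list, gave -0.038. Myeloid cells express C3ar1 as well. Of 8 macrophage markers 5 lay above background on average and 1, Csf1r, rose, from 7.87 to 8.22. Of the others, Cd68 read 5.61 and 6.09 and Cd14 9.17 and 8.99, neither passing the test. Clec4f and Lyz2 were not called, and Adgre1, Ptprc and Marco lay below background in both groups. The linear signals of the 8, a sum weighted to Cd14 as the brightest, lay between 1077 and 1095 on proliferating and between 1040 and 1132 on senescent arrays. The part of myeloid cells in the rise of C3ar1 was not tested.

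Of 12 other regulators C4bp, an inhibitor of the classical pathway convertase, rose and 0 fell. C4bp read 5.50, 5.52 and 5.92 in proliferating and 6.45, 6.48 and 6.18 in senescent cells, a log2 change of 0.72 (adjusted p = 0.0118), with 2 proliferating arrays below background. The call ended without senescent replicate 2 (0.67, adjusted p = 0.0535) and with spike-in scaling (0.18, adjusted p = 0.378). The brightest of the list were C1qbp, a C1q-binding mitochondrial protein, with -0.0015, and Clu, clusterin, with 0.51 (adjusted p = 0.067). Of 7 hepatocyte markers, which stand for the main liver source of complement, 0 were called and 3 lay above background on all arrays, with means in proliferating and senescent cells of 6.82 and 6.70 for Ttr, 6.29 and 6.03 for Apoa1 and 6.07 and 6.13 for Hnf4a. Alb (4.72 and 4.60), Cps1, Cyp2e1 and Fgb lay below background on average.

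**Figure D4:**
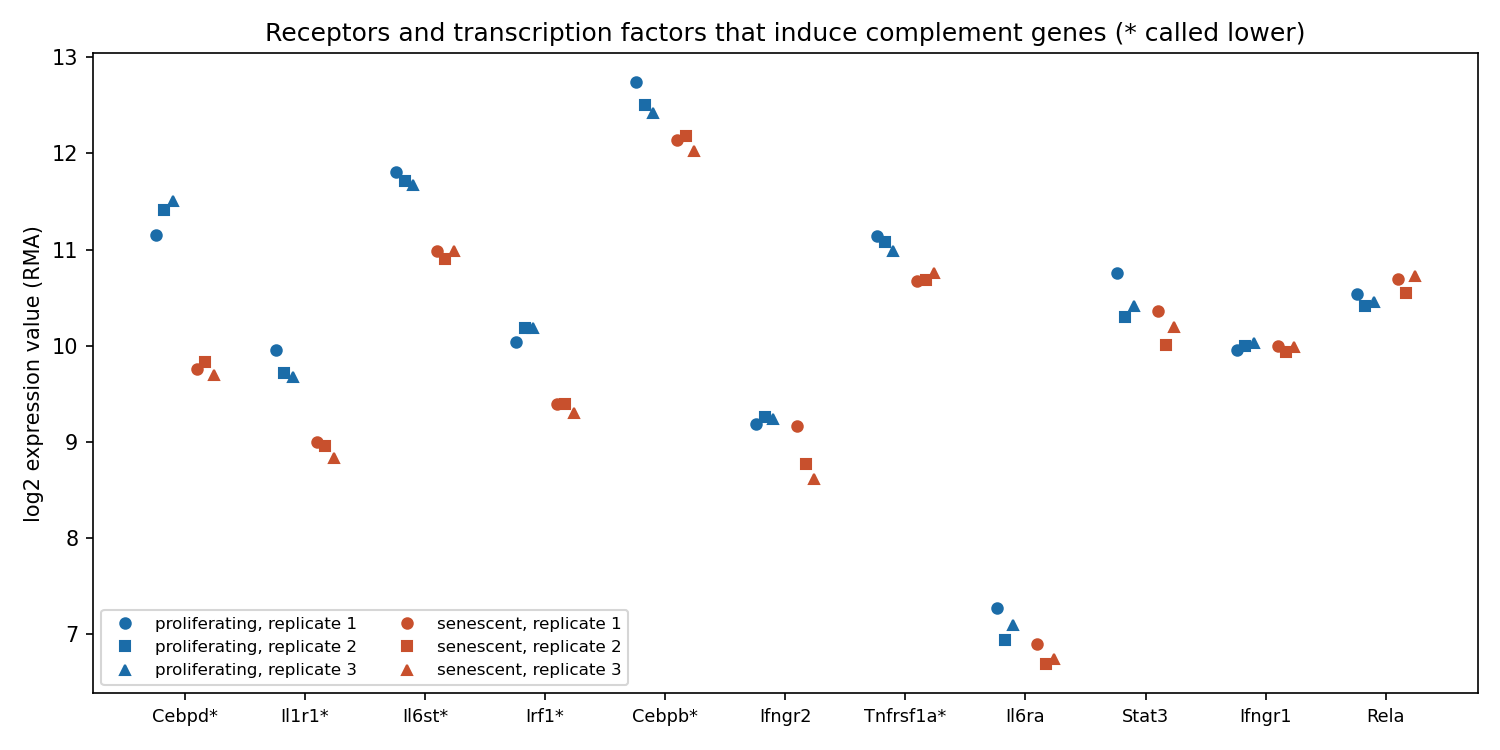
Log2 expression value (vertical axis) on each of 3 proliferating (blue) and 3 senescent (red) arrays for 11 receptor and transcription factor genes known to induce complement genes (horizontal axis, ordered by change, an asterisk marking those called lower). The groups lie farthest apart for Cebpd, and 6 of the 11 genes were called lower.

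Complement genes are known to be induced by interleukin 1, interleukin 6, tumour necrosis factor and interferon gamma through C/EBP, STAT, NF-kB and IRF factors. Of 11 measured genes for such receptors and factors 6 fell, against 8.22% of all genes, and 0 rose, and the median log2 change of the 11 was -0.37. All 11 had means above background, and of all genes with such means 21.9% passed in either direction. Cebpd, a C/EBP factor of the acute phase response, fell most, from 11.15, 11.41 and 11.51 in proliferating to 9.76, 9.84 and 9.69 in senescent cells (log2 change -1.59, adjusted p = 1.44e-04). Il1r1, the interleukin 1 receptor, fell by 0.85, Il6st, the signalling chain of the interleukin 6 receptor, by 0.77, and Irf1, an interferon response factor, by 0.77 (log2). The others that fell were Cebpb, a related factor (-0.44), and Tnfrsf1a, a tumour necrosis factor receptor (-0.36), and both calls ended without proliferating replicate 2 (-0.47 and -0.36), senescent replicate 1 (-0.45 and -0.35) or senescent replicate 2 (-0.48 and -0.35), that of Cebpb also without senescent replicate 3 (-0.40). Ifngr1, a chain of the interferon gamma receptor, gave -0.018 and Rela, an NF-kB subunit, 0.19, and neither passed. Ifngr2, Il6ra and Stat3, which did not pass either, gave -0.37, -0.33 and -0.30. A dimmer second probe set of Cebpd gave -0.12. Dimmer probe sets of Il6st (-0.38, adjusted p = 0.124) and Cebpb (-0.49, adjusted p = 0.0616) were not called either. Further Il6st probe sets did pass, at -0.75 and -0.79. The other probe set of Il1r1 lay below background and gave -0.0039. Whether these falls, or those of the 4 stellate cell and fibroblast markers, have a part in those of C1ra, C1s and Colec11 was not tested.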

How the data were processed

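Affymetrix arrays of 3 proliferating and 3 senescent samples were used, grouped by their titles. The authors deposited log2 values per probe set made with RMA, per the submitters' processing notes, with version, software and filters not given in the sources used here. RMA equalises the distributions of the arrays, so changes are relative to the other probe sets, and it compresses changes of dim ones.

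The 45101 probe sets include 64 control probe sets, which were left out. The platform annotation gave 34958 probe sets 1 symbol and 932 several, and symbols of 34754 were updated by gene number with RefSeq (GRCm38.p6), while 204 kept theirs. All 45037 others entered a linear model (limma 3.58.1, R 4.3.3, lmFit then eBayes) of senescent minus proliferating values, with Benjamini-Hochberg adjustment over all of them and a threshold of 0.05. Intervals are 95% from the moderated statistic. The fit was checked on simulated data. Background was set from 44 olfactory receptor probe sets (95th percentile of their means). Genes beyond the members were read from their brightest probe set. They were named where called, up to 4 per direction and list, with the 2 brightest where fewer than 2 were called. Cebpb, Tnfrsf1a, Ifngr1, Ifngr2, Il6ra, Stat3, Rela, C2, Cd55b and the C1q genes were added after their values were seen. The planned search for genes patterned like C3 was not made. Members and lists were chosen with earlier results of these data known. Python 3.11.15 with matplotlib 3.10.9 drew the figures. Same-numbered replicates deviated from their group means with correlations of 0.11, -0.11 and -0.16, so the numbers were not taken as pairs.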

Additional observations from a re-analysis of the deposited data

How the results depend on the processing

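The changes of C1ra and C1s, of the stronger Cd59a probe set, and of Masp1, C3ar1 and C9 kept their direction and stayed past the threshold in all 14 alternatives, and that of the stronger Colec11 probe set in all 13 that apply to it. These include the spike-in scaling described below, which moves every change downward. A fall could not turn under it, so it is no test of the genes that fell. With 1 array left out, between 3 and 4 member probe sets were called lower, 2 higher in each case, and between 4 and 6 of the other complement genes were called. With the replicate number as a block, 3 were lower, 2 higher and 5 other genes called; the Colec11 probe set below background (adjusted p = 0.0548) and C8g (adjusted p = 0.0726) lost their calls, as did Tnfrsf1a (adjusted p = 0.0621). With one probe set per gene or the mean of a gene's probe sets, Cd59a counted once, so 1 member was called higher in each. Over all probe sets 5579 were called, 3645 with one per gene, 3225 with means per gene, and between 3258 and 5298 with an array left out. Scaled to 27 poly-A spike-in probe sets, which read 0.54 log2 units higher on the senescent arrays, the median change of all probe sets was -0.54 and 1.14% of 34909 calls were higher, against 48.4% without it. Then 8 member probe sets were called lower and 1 higher, and 34 other complement genes were called. Cfb turned to -0.29, not called. The weaker Cd55 probe sets turned to -0.50 and -0.52 and were called lower, as were Serping1 (-0.81) and the strongest Cd55 probe set (-0.79). Left-out arrays gave Serping1 between -0.44 and 0.052 and the weaker Cd55 probe sets between -0.15 and 0.18 and between -0.099 and 0.10. Sign changes of values not called were Serping1 without proliferating replicate 1 (0.052) and the weaker Cd55 probe sets with array weights (-0.032 and -0.016), without proliferating replicate 1 (-0.15 and -0.099), senescent replicate 1 (-0.017 and -0.02) or senescent replicate 2 (-0.018 and -0.031). For whatever lies below background, as 24 of the 39 other complement genes do on average, the fitted size of a change is not readable here. This limit also holds for C8g and for the Colec11 probe set below background, which were called.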
